A study of Saccharomyces cerevisiae with 176 samples.

Results

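Budding yeast grown in batch on glucose was sampled over time, and 6 early libraries (0, 2 and 4 h) were set against 6 late ones (8, 10 and 12 h). The members were chosen by the time in their titles. They are 12 of 28 libraries of a wild-type time course, which is itself a portion of 176 libraries that otherwise come mostly from aneuploid strains. The cells were Saccharomyces cerevisiae of the S288C background, the haploid strain A2050, with no mutation or drug named, so early and late libraries share genotype and treatment and differ in the time spent in the same medium. Overnight cultures grown in YEPD, a rich medium of yeast extract and peptone, were diluted to an OD600 of 0.1 in YEPD with 2% glucose at 25 °C. They were grown for 4 h more, and sampling began at an OD600 near 0.3 and was repeated every 2 h. Each time has 2 libraries of poly(A) RNA. The labels do not say whether these came from separate cultures, nor whether successive times came from the same flask, so p-values measure only the spread between libraries, which may be technical. The growth phase at each time was not checked here, because the OD600 readings are not among the files used.

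Yeast in glucose medium ferments the sugar to ethanol even in air, and keeps respiration and reserve carbohydrate low while glucose is plentiful. The cell reads extracellular glucose through the membrane sensors Snf3 and Rgt2 and through hexokinase 2 and the kinases Snf1 and protein kinase A. As glucose falls, the transport genes (HXT) shift from low-affinity to high-affinity forms, trehalose and glycogen begin to accumulate, genes with the stress response element are induced and genes for making ribosomes are repressed. The paired programme of induced stress genes and repressed ribosome genes is called the environmental stress response.

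The identity of the cells was checked on mating genes, on the deposited scale of log2(TPM + 1), where TPM is the usual transcript abundance, scaled for gene length and for the total of the library. Among the a-specific genes the pheromone receptor STE2 ranged from 8.07 to 8.75 across the 12 libraries, and the a-factor gene MFA2 from 10.68 to 11.79. The alpha-specific genes STE3, MF(ALPHA)1 and MF(ALPHA)2 stayed at or below 1.69, and MF(ALPHA)2 was at 0 in 7 of the 12. The fourth alpha-specific gene, SAG1, lay between 2.71 and 3.49. The haploid-specific genes GPA1, STE4, STE18, STE5 and FUS3 were present in every library, so the markers match a haploid MATa strain apart from the level of SAG1. The genes of the table held 86.9 to 95.8% of all TPM in the early libraries and 70.3 to 94.6% in the late ones. The means, 92.3 ± 3.35% and 87.0 ± 9.65% (SD, n = 6 each), were not separated by a two-sided exact permutation test (p = 0.249, where the smallest possible p is 0.00216). The 6 h libraries, which belong to neither group, had 71.5 and 59.0%, and the lowest late library was replicate 1 of 8 h at 70.3%. The 20 most abundant genes took more of the table late (16.3 ± 0.466% early, 17.3 ± 0.770% late, exact permutation p = 0.0238), and the number of genes at 0 was 526 ± 59.0 early and 621 ± 93.6 late (exact permutation p = 0.0649). The share of the mitochondrial genome was 0.00192 ± 0.00069% early and 0.00343 ± 0.0016% late (exact permutation p = 0.0325). These are 4 measures of the make-up of the libraries with unadjusted p-values, and their part in the results below was not tested. Each library was centred on its own median, and gene levels below are log2(TPM + 1) minus that median unless TPM is stated. Because 1 is added to each TPM, fold changes of weakly expressed genes are understated.

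Between early and late libraries 1627 of 5469 genes tested changed (limma, Benjamini-Hochberg adjusted p under 0.05), which is 29.7%. Of these, 817 were higher late and 810 were lower, 14.9% and 14.8% of the genes tested. Counts of list members late against early are to be read beside these shares. Most changes were small. At a log2 difference of 1 or more, 81 genes were higher (1.48%) and 24 lower (0.439%), and the largest were genes of glucose uptake and phosphorylation, glycolysis, glycogen and trehalose, stress proteins, metal reductases and phosphate uptake. In 718 genes (13.1%) the 6 late values did not overlap the 6 early ones, 342 of them above (6.25%) and 376 below (6.88%). The even split rests on the centring: on the values as deposited the median over all genes fell by 0.11 late, and 295 genes were called higher against 705 lower. Over the whole gene table, replicate 1 of 8 h had the lowest median of the 12 libraries, 3.99. The other late libraries had medians of 4.39 to 4.58, and the early ones 4.35 to 4.62. The part of that library in the shift was not tested. The 10 largest increases and 10 largest decreases named below were picked among genes with no overlap, so the separation of their groups is a property of the choice. Other members named as examples of a list were picked after their values were seen.

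Genes of glucose uptake and phosphorylation held several of the largest changes, in both directions within the same families. HXK1, which encodes hexokinase 1 and lies on chromosome VI from 253592 to 255049 on the minus strand (YFR053C), had the largest increase of the named genes. Its early values ran from -1.38 through a median of -1.001 to -0.83, and its late values from 0.89 through 1.68 to 3.22. Late libraries were higher by 3.00 ± 0.07 (log2, SE, 6 against 6 libraries; adjusted p = 1.44e-09), an 8.01-fold increase. Its span shares 143 bases with the small frame YFR052C-A on the same strand, whose late values (1.43 to 3.88) also lay above its early ones (-0.93 to -0.46), and reads of the 2 cannot be assigned with certainty. GLK1, the glucokinase gene, and EMI2, its paralog, rose by 1.26 ± 0.08 and 0.90 ± 0.07. HXK2, the main hexokinase of glucose-grown cells, fell by 0.25 ± 0.05 (adjusted p = 0.00268), from an early median of 4.48 to a late one of 4.24.

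The hexose transporter genes divided in the same way. HXT1, the low-affinity transporter induced by high glucose (chromosome VIII, 290913 to 292625, minus strand), had early values of 1.88, 2.07 and 2.29 at lowest, median and highest, and late values of -1.64, 0.52 and 1.30. It was 4.05-fold lower late (log2 difference -2.02 ± 0.05, adjusted p = 1.44e-09). Its fall was spread over the late times, with 1.29 at 8 h, 0.52 at 10 h and -1.63 at 12 h as means of 2 libraries, and the step from 8 to 12 h alone was -2.93 ± 0.08 (adjusted p = 1.40e-09). HXT2 (chromosome XIII, 288079 to 289704), a transporter of higher affinity that is induced at low glucose, also fell. Its early values ran from 2.80 through 2.88 to 3.50 and its late values from 0.08 through 1.34 to 1.97, a difference of -1.86 ± 0.07. HXT4 moved the other way, from early values of -1.06, -0.78 and -0.15 to late ones of 0.61, 1.04 and 2.22, a 4.05-fold increase (2.02 ± 0.08, adjusted p = 7.91e-08). The high-affinity transporter HXT7 rose by 1.28 ± 0.07, but its groups overlapped, because the 0 h libraries were high: its mean was 1.15 at 0 h, -0.31 at 2 h and 2.63 at 12 h. HXT6, almost identical in sequence to HXT7, rose by 1.30 ± 0.20, and the share of reads assigned to each is uncertain.

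HXT3, the low-affinity transporter with the highest level of these genes throughout (478 to 597 TPM early and 420 to 720 TPM late), showed no net difference between the groups (0.10 ± 0.04, adjusted p = 0.106). It was higher than early at 6 and 8 h (0.38 and 0.46) and its difference at 12 h was -0.22, and without the 12 h libraries it was called higher (0.26, adjusted p = 0.0032). HXT5 stayed at or below 1.22 TPM in all 12 libraries and was under the filter on low values. Of 23 tested genes for hexose transport and glucose sensing, out of 34 in the table, 8 rose and 6 fell, beside 14.9% and 14.8% of all genes tested. The sensor genes SNF3 and RGT2 and the kinase gene SNF1 were not called. MTH1, a repressor of HXT genes, rose by 0.58 ± 0.08, with overlap between the groups and a loss of the call in a fit with no term for time (adjusted p = 0.061). The repressors of glucose-repressed genes MIG1, MIG2 and MIG3 fell by 0.29, 0.43 and 0.73. The groups of MIG2 and MIG3 overlapped. Their 8 h means of 1.25 and 0.04 lay inside their early ranges (0.97 to 1.63 and -0.18 to 0.46). SUC2, the secreted invertase, differed by 0.27 ± 0.08 (adjusted p = 0.0305). Its groups overlapped, and 8 of the 12 fits that left out a single library lost the call.

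**Figure D1:**
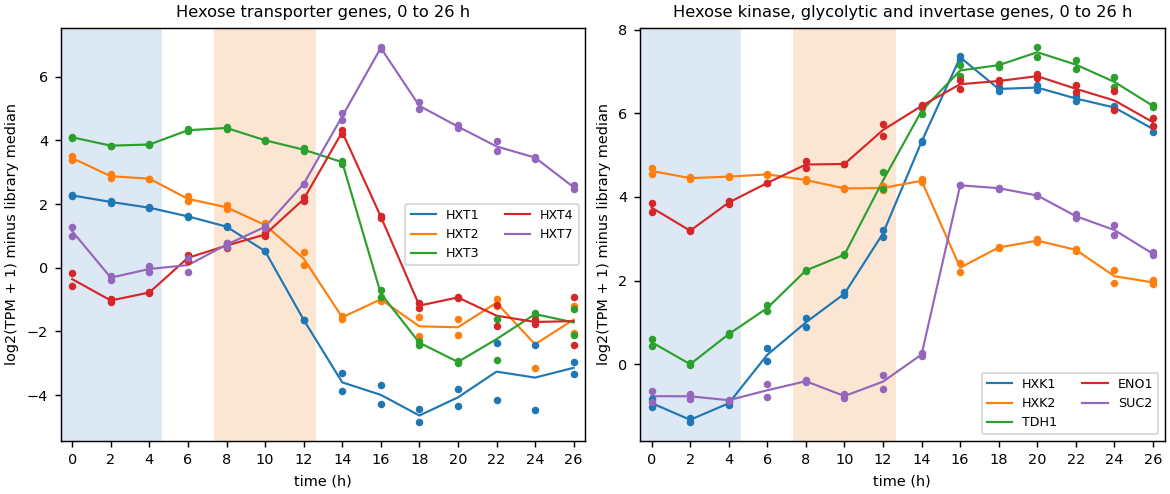
Levels of 5 hexose transporter genes (left) and of hexokinase, glycolytic and invertase genes (right) over the whole time course, as log2(TPM + 1) minus the library median on the vertical axis against time in hours. Points are single libraries and lines join the means of 2. The blue band marks the early and the orange band the late libraries, where HXT1 and HXT2 fall while HXT4, HXK1 and TDH1 rise.

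Within glycolysis the largest rises were in TDH1 and ENO1 among 26 genes tested. TDH1, a glyceraldehyde-3-phosphate dehydrogenase isozyme (YJL052W, chromosome X, 338271 to 339269), had early values of -0.02, 0.53 and 0.74 and late values of 2.22, 2.62 and 4.58. It was 6.36-fold higher late (2.67 ± 0.07, adjusted p = 2.74e-09). Its paralogs TDH2 and TDH3, which resemble it closely in sequence, had differences of 0.20 and 0.11 that did not pass the test. The enolase gene ENO1 rose by 1.45 ± 0.06, and ENO2, its paralog, differed by -0.02 ± 0.08 (adjusted p = 0.901). In all, 7 of 26 tested glycolytic and fermentation genes rose and 3 fell, beside 14.9% and 14.8% of all genes tested. The list median was 0.12 beside -0.01 for all genes. The count of rises depended on single libraries, with 11 without replicate 2 of 0 h and 12 without replicate 2 of 12 h, and was 3 without centring. The abundant pyruvate kinase gene CDC19 and decarboxylase gene PDC1 were not called (0.11 and -0.21). Genes of the later switch to ethanol were low in this window. ADH2, PCK1 and FBP1, for ethanol oxidation and gluconeogenesis, lay under the filter, and ACS1, acetyl-CoA synthetase, differed by 0.17 ± 0.15 (adjusted p = 0.435). The mean of PCK1 was -2.70 at 0 h, -3.40 at 12 h and 3.71 at 18 h. Of 17 tested genes for gluconeogenesis, glyoxylate and acetate use, out of 31 in the table, 2 rose (5 without replicate 2 of 12 h) and 4 fell. The rises were ALD4 (0.53 ± 0.08) and PYC2 (0.23 ± 0.07), and the largest fall was that of ATO3 (-1.20 ± 0.06).

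Genes for reserve carbohydrate rose together. Of 18 tested genes of trehalose and glycogen metabolism, out of 21, 15 were higher late and 0 lower, also at an unadjusted p under 0.05, with a median log2 difference of 0.68. GPH1, glycogen phosphorylase (YPR160W, chromosome XVI, 861306 to 864014), ran from -4.15 through -3.67 to -3.45 early and from -2.19 through -1.59 to -0.20 late, a rise of 2.41 ± 0.14 (adjusted p = 1.22e-06). TSL1, a regulatory subunit of the trehalose synthase complex, ran from -2.87 through -2.49 to -2.05 early and from -1.12 through -0.86 to 0.13 late, a rise of 1.89 ± 0.10 (adjusted p = 4.89e-07). Synthesis and breakdown moved the same way: the glycogen synthases GSY1 and GSY2 rose by 1.83 and 1.65, phosphoglucomutase PGM2 by 1.75, the branching enzyme GLC3 by 1.19, and the neutral trehalase NTH1 by 0.44. TPS1, the catalytic trehalose-6-phosphate synthase, rose by 0.68 ± 0.08. At 6 h 10 of 18 were already called higher (2.84% of all genes were) and TSL1 stood 1.15 above the early mean. GPH1 was still weakly expressed and averaged 1.52 TPM early and 14.6 TPM late.

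The list of stress-induced genes, which shares GPH1, TSL1 and other members with the preceding one, rose almost throughout. Of 70 tested, out of 76 in the table, 59 were higher late, 1 was lower (RTS3, -0.24 ± 0.06) and 10 were not called. The median difference was 0.72, beside -0.01 for all genes. HSP26, a small heat shock chaperone, ran from -3.04 through -1.78 to -1.66 early and from -1.21 through -0.32 to 1.12 late (1.99 ± 0.20, adjusted p = 5.80e-05). DDR2, a small protein induced by many stresses, was uneven among the early libraries. Its early values ran from -5.04 in replicate 1 of 4 h, where it was at 0 TPM, to -1.71 in replicate 2 of 0 h. It was higher late (-1.24 to -0.16) by 1.96 ± 0.44 (limma, adjusted p = 0.00661). HSP12, which encodes a membrane-stabilising small heat shock protein, rose by 1.75 ± 0.19 without overlap, from an early median of -2.18 to a late one of -0.67. These increases were a small portion of what came later. HSP12 had a mean of 0.52 at 12 h and 9.70 at 16 h. HSP30, a membrane protein that restrains the plasma membrane proton pump, rose by 1.88 ± 0.11 and was 1.66 above early already at 6 h. The disaggregase gene HSP104 rose by 0.83 ± 0.06. CTT1, the cytosolic catalase and a classical member of the response, did not pass the test (0.37 ± 0.17, adjusted p = 0.132). Its early values (-3.06 to -2.40) and late values (-2.71 to -1.89) overlapped. It was called when replicate 2 of 12 h was left out (0.51, adjusted p = 0.025).

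The stress response element AGGGG, the site of the factors Msn2 and Msn4, was counted on both strands in promoter windows of 300 bases, from 250 before to 50 after the start of each gene, read from the R64 genome. It was found in 21.5% of the windows of all genes tested, in 40.3% of those called higher, in 12.0% of those called lower and in 61.4% of the stress-induced list. The windows of TSL1 (chrXIII:70374-70673, plus strand) and DDR2 (chrXV:231706-232005, minus strand) are shown because they hold 3 copies each. Both are written 5′ to 3′ on the strand of the gene, and capitals mark AGGGG or its complement CCCCT.
TSL1: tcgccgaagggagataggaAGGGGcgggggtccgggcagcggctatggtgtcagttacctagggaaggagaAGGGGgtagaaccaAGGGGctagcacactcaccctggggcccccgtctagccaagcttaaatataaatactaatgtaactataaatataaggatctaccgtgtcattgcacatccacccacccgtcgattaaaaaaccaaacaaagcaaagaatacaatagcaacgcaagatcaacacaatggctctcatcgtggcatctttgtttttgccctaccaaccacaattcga
DDR2: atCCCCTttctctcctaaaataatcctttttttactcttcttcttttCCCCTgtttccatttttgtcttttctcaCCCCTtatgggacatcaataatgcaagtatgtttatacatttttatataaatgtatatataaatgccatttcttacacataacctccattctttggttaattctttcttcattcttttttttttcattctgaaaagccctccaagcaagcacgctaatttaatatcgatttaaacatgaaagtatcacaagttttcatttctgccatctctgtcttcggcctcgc
Not every strongly rising gene held the word, since HXK1 and GPH1 had 0 copies in this window. The match describes the letters only and says nothing of binding.

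**Figure D2:**
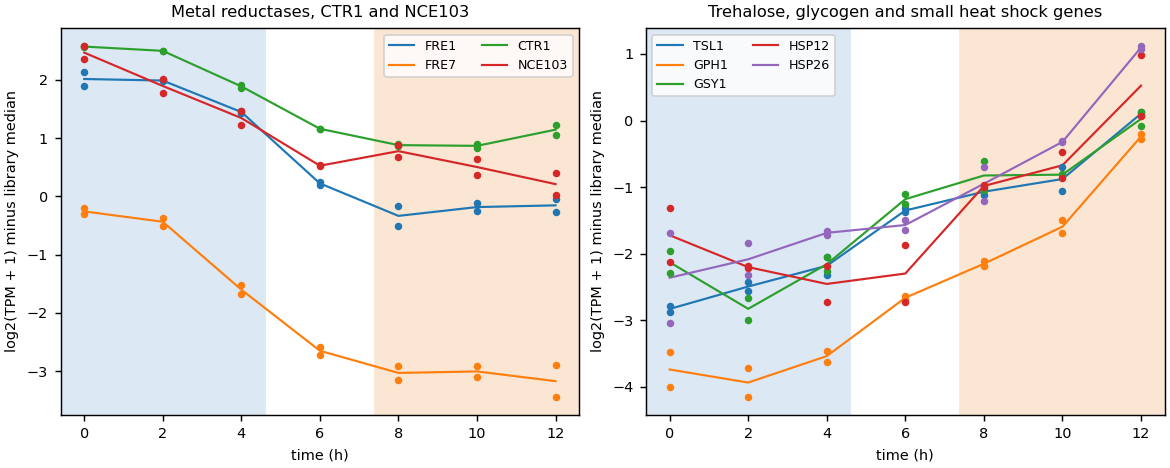
Levels from 0 to 12 h of FRE1, FRE7, CTR1 and NCE103 (left) and of trehalose, glycogen and small heat shock genes (right), as log2(TPM + 1) minus the library median. Points are single libraries and lines join the means of 2, with early libraries on blue and late libraries on orange. In the left panel FRE1, FRE7 and CTR1 change little after 8 h. NCE103 falls from a mean of 2.47 at 0 h to 0.53 at 6 h, and has means of 0.78 at 8 h and 0.21 at 12 h. In the right panel the means at 12 h lie above those at 8 h.

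Genes for making ribosomes fell as a block, by small amounts. Of 146 ribosome biogenesis genes, all tested, 137 were lower late and 0 were higher, also at an unadjusted p under 0.05, with a median difference of -0.43. The largest was SYO1, an importer of 5S ribonucleoprotein ribosomal proteins into the nucleus. Its early values were 0.20, 0.31 and 0.57 at lowest, median and highest and its late values -0.87, -0.34 and -0.08, a difference of -0.74 ± 0.11 (adjusted p = 0.000488). SDA1, needed for the large subunit, fell by 0.68 ± 0.07, the nucleolar protein gene NSR1 by 0.47 ± 0.07 and the box C/D methyltransferase gene NOP1 by 0.28 ± 0.06. Early and late values of SYO1, SDA1 and NSR1 did not overlap, and those of NOP1 did by a small margin (4.49 to 4.83 early, 4.06 to 4.49 late). SYO1 and NSR1 overlap other frames on the opposite strand, and nothing in the sources used here says whether the counting used strand. When all 28 time course libraries entered the fit, so that the later times set the spread, 52 of the 146 were called. In that fit 270 of all 5444 genes tested were called lower and 554 higher.

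Genes of the machinery that transcribes ribosomal RNA and transfer RNA followed. Of 36 genes for RNA polymerases I and III and their factors 19 fell and 0 rose (limma, adjusted; 21 and 1 at an unadjusted p under 0.05), with a median of -0.24. RRN11 and RRN7, of the core factor of polymerase I, fell by 0.54 ± 0.07 and 0.53 ± 0.10. Against early they were called lower at 8 and 12 h but not at 10 h (-0.16 and -0.21), and the groups of RRN11 overlapped. The polymerase III subunit genes RPC82 and RPO31 fell by 0.47 and 0.44. The general factor genes TFC1, TFC3, TFC4, TFC6, TFC7, TFC8, BRF1 and BDP1 were not called, and the contrast between them and the subunits was not tested. Among translation factor genes the largest called falls were those of HYP2, for eIF5A (-0.34 ± 0.08), and GCD11, for a subunit of eIF2 (-0.30 ± 0.06). The groups of HYP2 overlapped, and it was called lower at 10 h (-0.50) but not at 8 or 12 h (-0.26 and -0.25). It also shares 474 bases with the frame YEL034C-A on the opposite strand. Of 35 translation factor genes 11 fell and 1 rose. Their count of falls was sensitive to single libraries and was 5 without replicate 1 of 4 h or of 10 h, 6 without replicate 2 of 2 h, and 7 without replicate 2 of 4 h or of 10 h.

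Ribosomal protein genes had small differences, and their contrast with the biogenesis list was not tested. Of 138 tested, 26 were lower late, beside 14.8% of all genes, and 0 were higher (4 at an unadjusted p under 0.05), with a median of -0.10. The falls were 0.37 at most, for RPS14B (-0.37 ± 0.09), and many of these genes occur as near-identical pairs whose reads may be shared. RPL3 ran from 6.50 through 6.58 to 6.83 early and from 6.33 through 6.38 to 6.67 late and did not pass the test (-0.17 ± 0.07, adjusted p = 0.0925). RPS3 differed by -0.18 ± 0.05 (adjusted p = 0.0281). The number of falls was not stable: it was 40 without replicate 1 of 0 h, 13 without replicate 1 of 2 h or of 4 h, 16 without either 10 h library and 17 without replicate 2 of 8 h, while 6 genes were called higher without replicate 2 of 0 h. The median at single times was -0.10 at 6 h, 0.02 at 8 h, -0.22 at 10 h and -0.08 at 12 h.

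Biogenesis promoters are known for the words GATGAG (the polymerase A and C element) and AAAAATTTT (the ribosomal RNA processing element). GATGAG was found on either strand in 20.4% of all windows, 46.3% of those called lower, 14.3% of those called higher, 89.7% of the biogenesis list and 63.9% of the list of RNA polymerases I and III. In ribosomal protein genes the share was 10.9%. AAAAATTTT was found in 7.61% of all windows, 24.7% of those called lower and 65.1% of the biogenesis list. The windows of SYO1 (chrIV:340085-340384, minus strand) and of URA7, for CTP synthase, which fell by 0.60 ± 0.05 and is not in the biogenesis list (chrII:145679-145978, minus strand), are shown because they hold both words. They are written 5′ to 3′ on the strand of the gene, and capitals mark the 2 words or their complements CTCATC and AAAATTTTT.
SYO1: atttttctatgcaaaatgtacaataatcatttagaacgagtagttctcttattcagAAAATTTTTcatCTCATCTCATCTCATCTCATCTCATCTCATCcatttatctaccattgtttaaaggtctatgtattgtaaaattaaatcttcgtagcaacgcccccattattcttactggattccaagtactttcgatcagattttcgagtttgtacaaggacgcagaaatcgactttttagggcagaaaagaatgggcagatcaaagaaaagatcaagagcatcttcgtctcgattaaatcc
URA7: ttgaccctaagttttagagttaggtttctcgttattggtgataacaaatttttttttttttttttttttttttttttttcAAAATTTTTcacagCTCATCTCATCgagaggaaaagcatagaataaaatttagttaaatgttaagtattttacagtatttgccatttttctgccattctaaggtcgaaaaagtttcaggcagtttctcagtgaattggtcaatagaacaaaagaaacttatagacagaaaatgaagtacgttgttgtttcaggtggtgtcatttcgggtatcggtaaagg
SYO1 holds 6 copies of GATGAG, which overlap by a base in a repeat, and 1 of AAAAATTTT, and URA7 holds 2 and 1. The window of URA7 also contains a long run of a single base beside them.

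**Figure D3:**
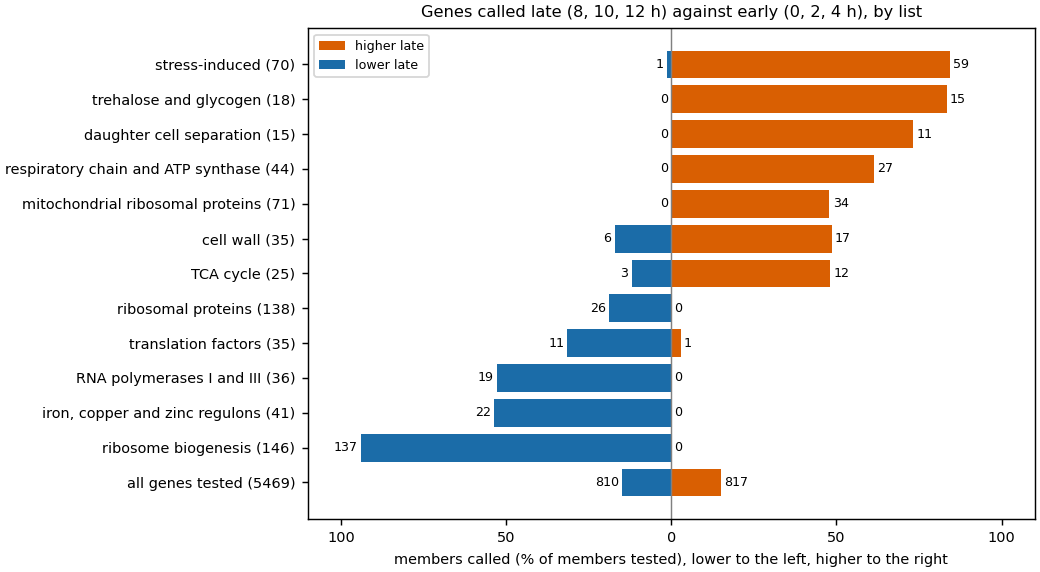
Share of tested members of each gene list called lower (left, blue) and higher (right, orange) in late against early libraries, with the number of genes at each bar and the number tested in brackets. The bottom bar gives all 5469 genes tested. Ribosome biogenesis (137 of 146 lower) and stress-induced genes (59 of 70 higher) lie at the ends of the range.

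Respiratory genes rose late. Of 44 tested nuclear genes for the respiratory chain and ATP synthase 27 were higher and 0 lower, also at an unadjusted p under 0.05, with a median of 0.32. CYC7, the minor isoform of cytochrome c, ran from -2.10 through -1.47 to -1.05 early and from -0.18 through 0.46 to 0.77 late (1.92 ± 0.09, adjusted p = 3.59e-07). COX5B, the alternative isoform of cytochrome c oxidase subunit V, ran from 0.58 through 0.83 to 0.99 early and from 1.94 through 2.10 to 2.76 late (1.43 ± 0.07, adjusted p = 2.60e-07). Both of these are isoforms known to be favoured at low oxygen, and their major counterparts CYC1 and COX5A were not called. STF1 and INH1, inhibitors of the ATP synthase, rose by 1.33 and 1.32, cytochrome c1 (CYT1) by 1.29 and the internal NADH dehydrogenase NDI1 by 0.87. COX26, which associates with respiratory supercomplexes, rose by 1.96 ± 0.41 with a wide spread (-4.23 to -2.39 early, -2.33 to 0.26 late). HAP4, the activating subunit of the Hap complex, rose by 0.38. Without centring 13 of the 44 were called higher and 0 lower.

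In the tricarboxylic acid cycle 12 of 25 tested genes rose and 3 fell (6 and 2 without centring). All 4 genes for succinate dehydrogenase rose, with SDH1 at 1.16 ± 0.09 and SDH2 at 0.80 ± 0.08, and so did both succinyl-CoA ligase genes (LSC2 by 0.79 ± 0.06). CIT1, ACO1, IDH1 and IDH2, of the steps from citrate synthase to isocitrate dehydrogenase, were not called, and their contrast with the later steps was not tested. In addition, the gene of peroxisomal citrate synthase, CIT2, fell by 0.86 ± 0.07. The word CCAAT, bound by the Hap complex, was found in 75.0% of windows of the respiratory list and 44.0% of all windows. Among genes called higher the share was 44.3% and among those called lower 41.1%, both near that of all windows. The window of SDH2 (chrXII:53882-54181, minus strand), shown as an example with 2 adjacent copies, is written 5′ to 3′ on the strand of the gene with CCAAT or ATTGG in capitals.
SDH2: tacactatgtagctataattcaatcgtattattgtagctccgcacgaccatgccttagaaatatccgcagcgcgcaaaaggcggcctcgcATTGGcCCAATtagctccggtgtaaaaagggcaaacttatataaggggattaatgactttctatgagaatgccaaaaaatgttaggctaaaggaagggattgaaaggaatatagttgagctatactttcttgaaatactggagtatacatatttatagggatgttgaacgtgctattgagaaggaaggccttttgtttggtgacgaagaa
Nuclear genes for mitochondrial ribosomal proteins were called higher in 34 of 71 and lower in 0, with a median of 0.23. None was called without centring (9 higher at an unadjusted p under 0.05), where their median was 0.12. The 34 also rested on single libraries: 18 were called without replicate 2 of 2 h or of 4 h, 20 without replicate 1 of 8 h and 21 without replicate 1 of 10 h. Genes of the mitochondrial genome, whose RNA has no stable poly(A) tail, were mostly under the filter, with 2 of 28 tested.

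Genes regulated by oxygen and heme moved in both directions, and the list was not tested as a set. Of 34 tested, 8 rose, CYC7 and COX5B among them, and 4 fell, beside 14.9% and 14.8% of all genes tested. HEM13 (0.17 ± 0.06, adjusted p = 0.0571) and ANB1 (-0.16 ± 0.07, adjusted p = 0.0979), which are classical genes repressed by oxygen, did not pass the test. HEM13 passed it in 5 alternatives, with differences of 0.17 to 0.22. Ergosterol genes gave 3 rises and 6 falls among 24. The falls were 2 without centring, and the largest, in ERG25, was 0.25 ± 0.06.

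Metal uptake genes fell. Of 41 tested genes of the iron, copper and zinc regulons 22 were lower late and 0 higher (limma; 1 higher at an unadjusted p under 0.05), with a median of -0.31. FRE1, the surface reductase for ferric and cupric ions (YLR214W, chromosome XII, 568567 to 570627), ran from 1.43 through 1.94 to 2.13 early and from -0.51 through -0.21 to -0.05 late, a 4.11-fold decrease (-2.04 ± 0.08, adjusted p = 7.36e-08). At single times 6 of the 41 were called lower at 6 h, 13 at 8 h and at 10 h and 26 at 12 h, and the list median went from -0.16 at 6 h to -0.36 at 12 h. Of all genes tested 2.18%, 6.12%, 6.27% and 15.6% were called lower at these 4 times. The difference of FRE1 from early was -1.60 at 6 h, -2.15 at 8 h and -1.97 at 12 h. CTR1, the high-affinity copper transporter, ran from 1.86 through 2.50 to 2.58 early and from 0.83 through 0.90 to 1.23 late (-1.35 ± 0.05, adjusted p = 6.55e-08). FRE7, a putative reductase that is induced by low copper, lay between -1.67 and -0.21 early and between -3.44 and -2.90 late (-2.30 ± 0.12). The iron genes of the siderophore transporter SIT1 and the multicopper oxidase FET3 fell by 0.92 and 0.55, and the zinc transporter gene ZRT1 by 0.56. CRR1, the neighbouring gene of FRE1 and a putative glycoside hydrolase of the spore wall, was among the 10 largest falls (-1.19 to -0.31 early, -2.50 to -1.64 late, a difference of -1.41 ± 0.10). MNC1, a small gene outside the lists, was another of the 10 (1.02 to 1.97 early, -1.65 to 0.27 late, a difference of -1.64 ± 0.26). For FRE1, FRE7 and CTR1, which were picked for the size of their change, the step from 8 to 12 h was not called (0.18, -0.14 and 0.27), whereas FRE7 and CTR1 already fell between 0 and 4 h (-1.34 and -0.68, adjusted p = 0.0086 and 0.00224). CTR1 did not stay low: its mean was 1.15 at 12 h and 3.50 at 16 h. NCE103, the carbonic anhydrase that lets yeast grow in air, went from an early median of 1.90 to a late one of 0.52 (-1.41 ± 0.09), with a fall of 1.12 between 0 and 4 h and a mean of 0.21 at 12 h.

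Phosphate genes split by transporter. PHO89, the sodium-dependent phosphate transporter (YBR296C, chromosome II, 796798 to 798522), had the largest fall of the named genes. It ran from -2.09 through -1.52 to -0.59 early and from -4.95 through -3.99 to -3.01 late. Late libraries were 5.77-fold lower (-2.53 ± 0.16, limma, adjusted p = 1.51e-06). PHO89 was weakly expressed, with means of 12.4 TPM early and 1.3 TPM late, and was at 0 TPM in replicate 2 of 12 h. PHO84, the proton-coupled high-affinity transporter and the usual reporter of phosphate starvation, did not pass the test (-0.08 ± 0.06, adjusted p = 0.364), with early values of 3.24 to 3.56 and late values of 3.21 to 3.52. The acid phosphatase genes PHO11 and PHO12, near-identical copies, fell by 1.24 and 1.07. PIC2, a mitochondrial copper and phosphate carrier, and PHM8, a nucleotide phosphatase, rose by 1.57 and 1.37. Of 27 tested genes of the list 4 rose and 7 fell, beside 14.9% and 14.8% of all genes tested.

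Nitrogen and amino acid genes moved in both directions, with list medians near that of all genes. GLN1, glutamine synthetase, rose by 1.02 ± 0.06 (3.36 to 3.72 early, 4.37 to 5.03 late). ARO10, the phenylpyruvate decarboxylase of the fusel alcohol pathway, rose by 1.44 ± 0.08, and by 1.57 between 0 and 4 h alone. APE1, a vacuolar aminopeptidase, rose by 1.30 ± 0.11, and GAT1, an activator of nitrogen catabolite genes, by 1.06. Some catabolic genes of particular amino acids fell, among them CHA1 for serine and threonine at -1.14, CAR1 for arginine at -1.08 and PUT1 for proline at -1.05. Of 42 tested genes of nitrogen and amino acid use 12 rose and 10 fell, beside 14.9% and 14.8% of all genes tested. In the sulfur pathway 10 of 28 genes fell and 1 rose, led by MMP1, the S-methylmethionine permease (-1.21 ± 0.11), and MET2 (-0.71 ± 0.14), whose call was lost without the 0 h libraries (-0.41, adjusted p = 0.11). Amino acid biosynthesis gave 12 rises and 8 falls among 61, and the direction of its median flipped with the libraries used.

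Purine and pyrimidine genes gave 12 rises and 13 falls among 36, beside 14.9% and 14.8% of all genes tested. The glycine cleavage genes, singled out after their values were seen, were among the rises. All 3 specific genes of the glycine cleavage system rose, GCV1 by 1.24 ± 0.06, GCV2 by 1.21 ± 0.07 and GCV3 by 1.00 ± 0.10, and so did SHM2, the cytosolic serine hydroxymethyltransferase, by 0.83 ± 0.06. These 4 were flat at 6 h, where they stood 0.03, 0.19, 0.14 and 0.01 above early, and rose afterwards to 1.94, 1.88, 1.50 and 1.38 above early at 12 h. Adenine deaminase AAH1, a gene of proliferating cells, fell by 0.53 ± 0.05.

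At the cell surface, 17 of 35 tested cell wall genes rose and 6 fell, with a median of 0.22. Without centring 8 rose and 5 fell. CWP2, a major mannoprotein, ran from 5.84 through 6.04 to 6.45 early and from 7.06 through 7.30 to 8.03 late (1.35 ± 0.10, adjusted p = 8.13e-06). YGP1, a secreted glycoprotein induced on nutrient limitation, rose by 1.01 ± 0.05. Genes of daughter cell separation, expressed in the daughter nucleus after mitosis, gave 11 rises and 0 falls among 15, also at an unadjusted p under 0.05, with a median of 0.48. PRY3, a wall protein, rose by 1.24 ± 0.09, the chitinase CTS1 by 0.74 ± 0.05 and the glucanase DSE2 by 0.70 ± 0.09. These began inside the early group, where 6 of 15 were higher at 4 h than at 0 h (0.44% of all genes were). CTS1 rose by 0.77 in that step (limma, adjusted p = 0.000688). Between 8 and 12 h 0 of 15 were called in either direction, beside 4.14% of all genes. At that share a count of 0 among 15 says little about the list. Without the 0 h libraries 8 of 15 were called and the median relative to all genes was 0.32 in place of 0.49.

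Cell cycle genes were called about as often as all genes or less, beside 14.9% higher and 14.8% lower over all genes tested. Of 34 tested genes of S phase and histones 5 rose and 2 fell, and of 21 genes of G2 and M phase 3 rose and 1 fell, which was CLN3, the G1 cyclin kept in that list (-0.49 ± 0.10). HHO1, linker histone H1, differed by 0.47 ± 0.07. Chaperones divided, with 7 rises among 33 that include HSP26, HSP104 and HSP42, and 9 falls that include YDJ1 (-0.44 ± 0.05) and BTN2 (-0.65 ± 0.13). Proteasome genes gave 2 rises and 6 falls among 39, a share of falls near the 14.8% of all genes, and 0 falls without centring (9 at an unadjusted p under 0.05). The 6 falls also ranged from 2 to 10 when single libraries were left out, with 2 without replicate 1 of 2 h, 3 without replicate 1 of 4 h or of 8 h or either 10 h library, and 10 without replicate 2 of 12 h. PMA1, the proton pump itself, was not called (-0.15 ± 0.06, adjusted p = 0.0992), while MRH1, a relative of HSP30, rose by 0.62 ± 0.05. In glycerol metabolism GPP2 rose by 1.12 ± 0.09 and the glycerol-3-phosphate dehydrogenase gene GPD2 fell by 0.78 ± 0.06. The remaining lists had medians between -0.01 and 0.11. Vitamin pathways gave 8 rises and 4 falls among 35 genes, haploid and mating type genes 6 and 3 among 22, and fatty acid and phospholipid synthesis 6 and 3 among 28. The rises of vitamin genes were 5 without replicate 2 of 2 h or 4 h or replicate 1 of 12 h. Those of mating genes were 3 without replicate 2 of 2 h, either 4 h library or replicate 1 of 8 h or 10 h. The falls in phospholipid synthesis were 5 without replicate 2 of 8 h or of 12 h. Osmotic and glycerol genes gave 6 and 5 among 23, fatty acid oxidation 2 and 1 among 24, sugar use other than glucose 3 and 0 among 10, and the proton pump list 3 and 0 among 8 (0 and 2 falls at an unadjusted p under 0.05 in the last pair).

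The timing was examined in a fit of 14 libraries that adds the 6 h pair. Against the same early libraries 274 of 5455 genes tested were called at 6 h (5.02%), 744 at 8 h (13.6%), 621 at 10 h (11.4%) and 1672 at 12 h (30.7%). Of all genes 2.84% were called higher and 2.18% lower at 6 h, 7.52% and 6.12% at 8 h, 5.11% and 6.27% at 10 h, and 15.1% and 15.6% at 12 h. These comparisons share the early libraries and are not independent of each other. The counts before 12 h leaned on single libraries. At 6 h they were 78 without its replicate 1, 112 without its replicate 2 and 165 without replicate 1 of 4 h. At 8 h they were 267 and 388, and at 10 h 189 and 209, without replicates 1 and 2 of those times. Ribosome biogenesis genes were called lower in 31 of 146 at 6 h, 80 at 8 h, 75 at 10 h and 135 at 12 h, and stress-induced genes higher in 29, 46, 39 and 61 of 70. Without the 12 h libraries altogether, late against early still called 119 biogenesis genes lower and 50 stress-induced genes (of 68 tested) higher. In that fit 628 of all 5469 genes tested were called higher and 609 lower. At 6 h the summed share of TPM in the table was low, as given above, and 2740 genes were called there without centring, 2704 of them lower. The ribosomal DNA frames TAR1 and YLR154W-A had 6 h means of 4.10 and 4.52 beside early maxima of 2.87 and 3.09. The part of these shifts in the 6 h calls was not tested.

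**Figure D4:**
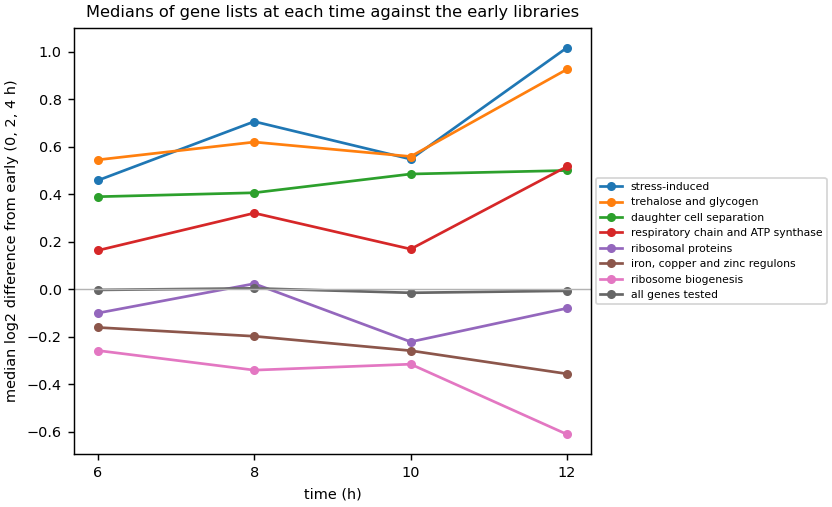
Median log2 difference from the early libraries at 6, 8, 10 and 12 h for 7 gene lists and for all genes tested, which stay near 0. Each point is the median over the tested members of a list in a comparison of 2 libraries with the 6 early ones. Stress-induced genes reach 1.02 and ribosome biogenesis genes -0.61 at 12 h.

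Neither group was uniform. Between 0 and 4 h 67 genes differed (1.23%), 24 higher and 43 lower, and between 8 and 12 h 226 did (4.14%), 109 higher and 117 lower (2.0% and 2.14%). The largest falls inside the early group included MFA1, for a-factor (-1.61), SNZ1, of vitamin B6 synthesis (-1.54), HXT7 (-1.19) and MTH1 (-1.15). The fatty acid desaturase OLE1 rose by 1.37 in those 4 h. The count was 39 without replicate 1 and 28 without replicate 2 of 0 h, and 18 and 17 without those of 4 h. Between 8 and 12 h genes of sugar and glycogen use already described were among those called. HXK1 and TDH1 rose by 2.13 and 2.15, HXT7 by 1.91 and GPH1 by 1.91. HXT1, HXT2 and PHO89 fell by 2.93, 1.61 and 1.65, and the pheromone-regulated gene PRM7 by 2.36. That count was 119 and 126 without replicates 1 and 2 of 8 h and 344 without replicate 1 of 12 h.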

How the data were processed

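RNA sequencing values of the 12 libraries at 0, 2, 4, 8, 10 and 12 h were compared, with 6 h and later times beside them. Per the submitters' processing notes, the authors used STAR 2.5.3a and RSEM 1.3.0 with sacCer3. The deposited table holds log2(TPM + 1) for 6692 genes, per the labels and its values. TPM keeps no depth, so the depth and counting error of each library are unknown. Groups and replicate numbers were taken from the titles. The members and gene lists were chosen with earlier results of these data known.

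Values were centred on each library's median and fitted with limma 3.58.1 in R 4.3.3 (trended variance prior, a term for each time, 6 residual degrees of freedom), for genes with a mean log2(TPM + 1) of at least 2. The comparisons of single times came from 14 libraries (7 residual degrees of freedom). P-values were Benjamini-Hochberg adjusted over all genes tested, and genes under 0.05 were called. The script was tested on simulated data. Gene lists (34) are described by counts and medians, with no test of a list.

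Named genes were the 10 largest rises and falls among called genes with a standard name whose 6 late and 6 early values did not overlap, up to 2 leading called members of each list, and a fixed set of 24 genes. Other genes were chosen after their values were seen. Of 89 named genes 11 overlap another gene of the table, and the sources used here do not say whether counting used strand. Promoter windows (250 bases before to 50 after the gene start) came from the NCBI R64 genome, where 5981 of 5989 nuclear genes had the coordinates of the authors' annotation, and 5332 of 5469 genes tested had a window. Same-numbered replicates did not deviate together (correlations from -0.25 to 0.18), so the numbers were not treated as pairs. Alternatives were no centring, rescaling, other filters and pseudocounts, other fits, a replicate block and leaving out libraries or times.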

Additional observations from a re-analysis of the deposited data

Results flagged for a closer look

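In 6 of 172 groups of 6 values, a single library stood apart from the others by the Dixon criterion, which chance alone passes in about 1 group in 20. Values are log2(TPM + 1) minus the library median. Replicate 1 of 12 h was the lowest late library for MNC1 (-1.65, with the nearest at -0.28) and for BTN2 (-0.18, nearest 0.47), and the highest for HHO1 (2.57, nearest 2.22). Replicate 2 of 4 h was the highest early library for ERG25 (3.38, nearest 3.21). Replicate 1 of 2 h was the lowest early library for YOX1 (-2.05, nearest -1.73). Replicate 1 of 0 h was the lowest early library for OPI3 (0.78, nearest 1.06).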

How the results depend on the processing

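Of 60 called named genes that could be run under all 24 settings 43 kept their call in each. The other 18 were removed by the filter at a mean of 4, and 56 of all 78 kept their call wherever they were run, and no result changed sign among those with a call. The replicate block changed no call among the 85 named genes tested. It could not be read as a pairing, since the numbers do not pair the libraries, and it gave 1528 calls late against early.

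With no centring the calls were 1000 (late against early), 2740 (6 h), 176 (10 h), 828 (12 h), 17 (4 h against 0 h) and 84 (12 h against 8 h). With all 28 libraries in the fit they were 824, 128 (6 h), 297 (8 h), 244 (10 h), 808 (12 h), 32 (4 h against 0 h) and 102 (12 h against 8 h). In the former the split late against early was 295 higher and 705 lower, in the latter 554 and 270, beside 817 and 810. Leaving out single libraries gave 78 to 387 calls at 6 h, 267 to 931 at 8 h, 189 to 782 at 10 h, 17 to 85 for 4 h against 0 h and 119 to 344 for 12 h against 8 h. Why these counts moved was not tested, except that a time reduced to 1 library leaves fewer samples and its spread is then taken from the other times.

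List medians below are relative to all genes. The median of stress-induced genes (0.73) was 0.69 with no filter, 0.80 with a pseudocount of 0.1, 0.70 with 28 libraries and 0.70 to 0.79 without single libraries. Without the 12 h libraries the medians were 0.62 for stress-induced genes, -0.32 for ribosome biogenesis, 0.53 for trehalose and glycogen, 0.13 for the cell wall, -0.020 for amino acid biosynthesis, -0.20 for the sulfur list, -0.23 for metal regulons, -0.037 for the proteasome and 0.011 for phospholipid synthesis. Without the 0 h libraries they were 0.32 for daughter separation, 0.11 for amino acid biosynthesis, 0.10 for vitamins, -0.24 for metal regulons and -0.088 for phospholipid synthesis. With a filter at a mean of 4 they were -0.055 for gluconeogenesis, -0.030 for oxygen-regulated genes, -0.21 for the sulfur list, 0.11 for vitamins, 0.57 for daughter separation, 0.13 for mating genes and 0.28 for maltose, sucrose and galactose use, whose median was -0.020 with 28 libraries, where that of vitamins was 0.044. Without single libraries the ranges were -0.016 to 0.044 for amino acid biosynthesis, -0.023 to 0.039 for vitamins and 0.017 to 0.12 for phospholipid synthesis. The cause of these shifts was not tested.

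The limits are 2 libraries a time, no record of separate cultures, an unknown depth, and OD600 readings that were not analysed here. Centring removes any change shared by most genes, and a change in total RNA per cell cannot be seen.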

Other observations

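Several of the larger rises belonged to genes outside all 34 lists, and the following were chosen after their values were seen. GAD1, glutamate decarboxylase, was 1.36 ± 0.09 higher late than early (log2 difference, SE, 6 against 6 libraries). PDR15, a plasma membrane transporter of the multidrug resistance family, was higher by 1.34 ± 0.08, and TPO4, a polyamine exporter, by 1.36 ± 0.11. WSC4, a membrane protein of the cell wall stress sensor family, was higher by 1.56 ± 0.17, and its difference from early was 1.01 at 8 h and 2.19 at 12 h. All 4 passed the test over all genes (limma, adjusted p = 3.03e-06 for GAD1), and their late values lay above their early ones.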
